A study of Arabidopsis thaliana with 12 samples.

Results

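The transcriptional response of wild type Arabidopsis thaliana seedlings to gamma irradiation was followed on 6 of the 12 expression arrays of the series: 3 of untreated and 3 of irradiated wild type seedlings, compared over all 16947 loci on the table. Seedlings were of the Col-0 ecotype and were grown for 5 days in continuous light at 21 °C. The irradiated group was exposed to 100 Gy from a cobalt source, delivered at 27 to 34 Gy/min, and its RNA was taken 1.5 h afterwards; the untreated group was not exposed. The labels call the replicates biological and give no account of how untreated plates were handled meanwhile. The other 6 arrays hold gmi1-1, a line deficient in GMI1, a gene that depends on the checkpoint kinase ATM; the series asked whether GMI1 takes part in the response. Each array was made from RNA of whole seedlings, so fewer cells of a type and less RNA per cell cannot be told apart in any fall described here.

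Gamma rays break both strands of DNA and also split water into reactive oxygen species. In plants the kinase ATM passes the break signal to the transcription factor SOG1, which switches on repair genes and inhibitors of the cell cycle. Oxidative and wound signals run through calcium, kinase cascades and WRKY, ERF, NAC and zinc finger transcription factors, and are known to redirect defence metabolism and growth. The account below leaves the known repair and arrest genes aside, of which 21 of 28 tested rose and 1 fell, and turns to signalling, metabolism, the cell wall, transport and loci without a gene name.

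Values are log2 expression per locus, given throughout in the order of replicates 1, 2 and 3. Of the loci, 9566 had a value of 4 or more on at least 3 of the 6 arrays and were tested. With limma at an adjusted p under 0.05, 572 of them (5.98%) were called: 343 rose (3.59%) and 229 fell (2.39%), and 1973 had an unadjusted p under 0.05. On all called loci the 3 irradiated arrays lay on 1 side of the 3 untreated arrays, which 10.7% of tested loci did upwards and 17.2% downwards. Remarks below that the groups of a called gene did not overlap therefore add nothing to its call. Rises were the steeper: 85 loci rose and 19 fell by a log2 of 3 or more. Of those that rose, 121 came from below 4 on all untreated arrays, and 57 of those that fell ended below 4 on all irradiated arrays. Values that low were not set against a detection call, so changes from or to them are approximate. The median change over all tested loci was -0.11, which every change below is to be read against.

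**Figure D1:**
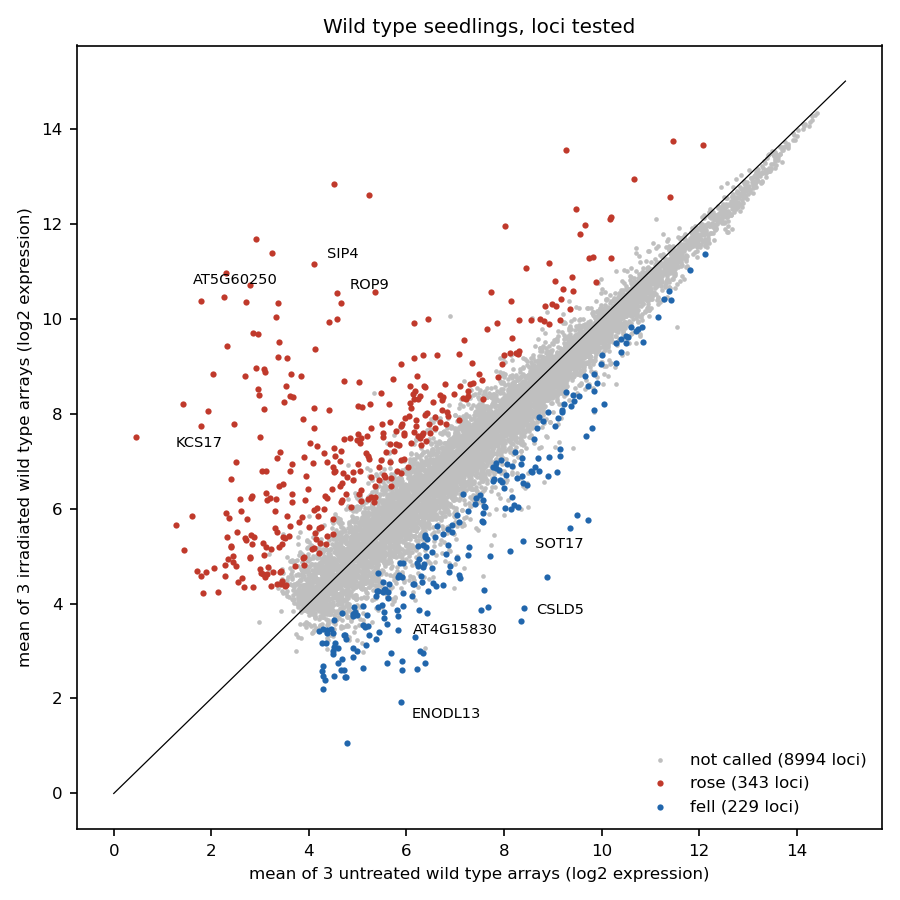
Mean log2 expression of the 3 irradiated arrays (vertical axis) against that of the 3 untreated wild type arrays (horizontal axis) for each tested locus, with a line of equal values. Red points are the 343 loci that rose, blue points the 229 that fell and grey points the loci not called; many red points lie far above the line at low untreated levels, while the blue points stay nearer to it.

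The untreated arrays were not equally spread. Untreated replicates 2 and 3 differed by more than a log2 of 1 at 53 loci (Pearson r = 0.997 across loci), whereas untreated replicate 1 differed from them at 1012 and 1097 loci and from irradiated replicate 1 at 850. The mean of 24 heat shock genes read 7.50, 8.59 and 8.49 on the untreated arrays and 7.65, 7.68 and 8.41 on the irradiated arrays, so it was lower in both arrays numbered 1 and in irradiated replicate 2; its part in the results was not tested. With untreated replicates 2 and 3 counted as 1 sample, 213 loci rose and 70 fell. Leaving out untreated replicate 1 gave 306 rises and 342 falls, which turned the balance between them. Leaving out untreated replicate 2 gave 217 and 73, leaving out untreated replicate 3 gave 208 and 69, and leaving out irradiated replicate 2 gave 265 and 129. With each array left out in turn, 201 of the rises and 64 of the falls kept their call every time. Where a gene below did not, arrays it depended on are named. Markers of the root (SCR 7.38 to 8.0, SHR 4.58 to 5.52), the epidermis (PDF2 8.56 to 9.04) and the stomatal lineage (TMM 4.57 to 5.40) were read on all 6 arrays, and the floral regulators AP1, AP3, PI and AG and the seed storage genes CRU2 and SESA1 stayed between 0.37 and 2.42. WUS of the shoot meristem (0.30 to 0.56), PLT1 of the root stem cell niche (1.19 to 1.92) and RHD6 of root hair cells (2.0 to 2.48) were low on every array.

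All called genes of calcium signalling and of the MAP kinase cascade rose. SIP4 (CIPK11, AT2G30360), a protein kinase that works with calcium sensors of the CBL family, had the largest rise among genes with a name outside the known repair and arrest genes. It read 3.20, 3.99 and 5.13 on the untreated arrays and 10.38, 11.72 and 11.36 on the irradiated arrays (log2 change 7.05, SE 0.54, adjusted p = 0.000444), so the groups lay far apart although its untreated values were themselves uneven. Of 111 genes of calcium signalling listed, 53 were tested, 6 rose (11.3% of those tested) and none fell at an adjusted p under 0.05. Of these 6, 3 were counted only because their irradiated values passed the filter; without that filter 10 of 111 rose, or 9.01% against 2.46% of all loci.

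The calcium list held channels, sensors and kinases. CNGC19 (AT3G17690), a cyclic nucleotide-gated calcium channel, read 2.28, 2.32 and 2.50 on the untreated arrays and 5.13, 6.28 and 5.95 on the irradiated arrays (log2 change 3.42, SE 0.30, adjusted p = 0.000815). CBP60G (AT5G26920), a calmodulin-binding activator of salicylic acid synthesis, went from 1.93, 1.43 and 1.77 to 4.02, 5.25 and 4.77 (log2 change 2.97, SE 0.33, adjusted p = 0.00246), and the calmodulin-like sensor gene CML11 (AT3G22930) rose by 2.51 (adjusted p = 0.000982). Both started near the low end of the scale on all untreated arrays and none of their irradiated values overlapped them. CAM9, another calmodulin-like gene, rose by 1.47 from an already high level. The calcium-dependent kinase gene CPK4 rose by 1.08, but lost its call without untreated replicate 2 (0.0831), untreated replicate 3 (0.104), irradiated replicate 2 (0.0543) or irradiated replicate 3 (0.0636; adjusted p in each case).

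Among the kinases, AGC2-1 (AT3G25250), known as OXI1 and needed for responses to oxidative bursts, read 4.50, 4.43 and 4.32 on the untreated arrays and 9.67, 10.15 and 9.98 on the irradiated arrays (log2 change 5.52, SE 0.19, adjusted p = 1.17e-05). All 3 irradiated arrays stood far above the untreated ones, which were close to each other. In the MAP kinase cascade 3 of 23 tested genes rose (13.0% against 3.59% of all tested loci) and none fell; without the filter 7.89% of 38 rose against 2.46%. MKK9 (AT1G73500), a MAP kinase kinase upstream of ethylene and camalexin, read 6.33, 6.05 and 6.76 on the untreated arrays and 8.85, 8.47 and 8.33 on the irradiated arrays (log2 change 2.17, SE 0.25, adjusted p = 0.00277). MPK7 rose by 1.44 and MAPKKK5 by 1.20; MPK7 lost its call without untreated replicate 3 (adjusted p = 0.0562), and MAPKKK5 kept its call only without irradiated replicate 3. The count for the cascade was 1 without untreated replicate 3. MPK3, a kinase of wound and defence signalling, read 9.36, 9.22 and 9.07 on the untreated arrays and 9.67, 10.57 and 10.05 on the irradiated arrays and was not called (log2 change 0.88, adjusted p = 0.106).

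Of the 44 receptor-like kinases and proteins tested, of 155 on the table, 6 rose and 1 fell. BRL3 (AT3G13380), a brassinosteroid receptor of the vasculature, read 4.69, 3.77 and 4.04 on the untreated arrays and 7.13, 8.01 and 6.79 on the irradiated arrays (log2 change 3.14, SE 0.37, adjusted p = 0.00314). SERK4 (AT2G13790), a co-receptor kinase, went from 2.28, 2.55 and 2.71 to 4.88, 4.99 and 4.47 (log2 change 2.27, SE 0.22, adjusted p = 0.00115), and the wall-associated kinase WAK2 rose by 2.43 (adjusted p = 0.0501 without untreated replicate 3). Irradiated values of BRL3, SERK4 and WAK2 lay above every untreated value. CRK3, HLECRK and RLP12 rose by 1.45, 1.14 and 1.10 and LecRK-VIII.1 fell by 1.10; these 4 calls were lost without untreated replicate 2 or 3 (adjusted p up to 0.091, 0.138, 0.162 and 0.165). In all, 3 receptor genes rose without untreated replicate 2 and 2 without untreated replicate 3. Without the filter 3.87% of the receptor list rose, near the 2.46% of all loci, and 1.29% fell against 1.67%. Among ubiquitin ligases 3 of 29 tested rose (10.3% against 3.59% of all tested loci). ATL2, a membrane RING ligase induced by chitin, read 4.24, 4.09 and 4.69 on the untreated arrays and 5.88, 6.32 and 6.58 on the irradiated arrays (log2 change 1.92, SE 0.26, adjusted p = 0.00533); ATL6 and PUB45 rose by 1.09 and 0.86. Only ATL2 was called without untreated replicate 2 (0.118 for ATL6 and 0.13 for PUB45), untreated replicate 3 (0.0718 and 0.206) or irradiated replicate 2 (0.0543 and 0.0933), and PUB45 was called in no repeat with 1 array left out.

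Transcription factors of stress families held many of the steepest rises. NAC103 (AT5G64060), a NAC factor known as a target of SOG1 and of the unfolded protein response, read 2.05, 2.07 and 1.96 on the untreated arrays and 8.36, 9.33 and 8.83 on the irradiated arrays (log2 change 6.81, SE 0.26, adjusted p = 1.47e-05). WRKY25 (AT2G30250), a WRKY factor of heat and oxidative stress, read 2.49, 3.13 and 3.12 on the untreated arrays and 8.38, 9.45 and 9.05 on the irradiated arrays (log2 change 6.05, SE 0.32, adjusted p = 6.93e-05), and STZ (AT1G27730; ZAT10), a zinc finger repressor of abiotic stress, read 2.80, 2.98 and 3.09 on the untreated arrays and 8.11, 8.85 and 8.60 on the irradiated arrays (log2 change 5.56, SE 0.23, adjusted p = 1.95e-05). All 3 genes were low on every untreated array and high on every irradiated array.

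Of 47 WRKY genes listed, 19 were tested, 8 rose and 1 fell; 7 of the 8 entered the test only through their irradiated values. Without the filter 9 of 47 rose, 19.1% against 2.46% of all loci, and the median change over all 47 was 0.49 against -0.03 over all loci. WRKY33 (AT2G38470), the activator of camalexin synthesis, read 3.40, 3.59 and 3.88 on the untreated arrays and 7.68, 9.34 and 8.11 on the irradiated arrays (log2 change 4.75, SE 0.42, adjusted p = 0.000794). WRKY46 went from 2.08, 2.38 and 2.50 to 4.82, 5.86 and 5.54 (log2 change 3.09, SE 0.29, adjusted p = 0.00112), and WRKY48 from 2.44, 2.22 and 2.70 to 4.38, 5.15 and 5.46 (log2 change 2.54, SE 0.30, adjusted p = 0.00319), again with no overlap. WRKY40 and WRKY70 rose by 2.67 and 1.83, WRKY40 without a call when all 12 arrays were fitted (adjusted p = 0.0899). WRKY6 and WRKY23 rose by 1.56 and 1.26; WRKY6 lost its call without untreated replicate 2 (0.0577), untreated replicate 3 (0.0722) or irradiated replicate 3 (0.052), and WRKY23 without untreated replicate 2 (0.085; adjusted p in each case). The single fall, that of WRKY65 (-1.17), was called with an adjusted p just under the threshold and kept its call only when untreated replicate 1 was left out.

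In a list of stress zinc finger genes, which joins ZAT, AZF and ZFP genes with the CCCH gene SZF1, 5 of 11 tested rose and 1 fell. Without the filter 29.4% of the 17 on the table rose against 2.46% of all loci, SZF1 among them. SZF1 (AT3G55980), a tandem CCCH zinc finger gene of salt stress, read 5.03, 5.33 and 5.42 on the untreated arrays and 7.65, 8.53 and 8.42 on the irradiated arrays (log2 change 2.94, SE 0.27, adjusted p = 0.00101), and ZF3 (AT5G43170) rose by 2.56 (adjusted p = 0.000916). ZAT11 rose by 1.92, with an adjusted p of 0.0631 over all 12 arrays. RHL41, which is ZAT12 of oxidative stress, read 4.0, 5.28 and 5.09 on the untreated arrays and 6.57, 6.60 and 6.81 on the irradiated arrays (log2 change 1.87, SE 0.34, adjusted p = 0.0216). Its irradiated values were close together and above all untreated values, but the call was lost without untreated replicate 3 (0.0565) or irradiated replicate 1, 2 or 3 (0.059, 0.0741 and 0.0735). ZFP7 fell by 1.86 and lost its call without untreated replicate 2 or 3 (0.132 and 0.144) or irradiated replicate 1 or 2 (0.0918 and 0.108).

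ERF and DREB factors rose in 5 of 18 tested (27.8% against 3.59% of all tested loci) and none fell. Of the 5 rises 3 entered the test only through their irradiated values. Without the filter 11.6% of the 43 on the table rose against 2.46% of all loci. ERF6 (AT4G17490), an ERF factor that reads oxidative signals from MAP kinases, went from 3.43, 3.28 and 3.66 to 6.45, 7.19 and 5.92 (log2 change 3.06, SE 0.33, adjusted p = 0.00199). ERF104 read 4.33, 4.40 and 4.89 on the untreated arrays and 7.29, 7.48 and 6.54 on the irradiated arrays (log2 change 2.56, SE 0.30, adjusted p = 0.00282), and its relative ERF105 rose by 2.81 (adjusted p = 0.00409). ERF5 rose by 1.09, losing its call without untreated replicate 2 or 3 (0.0896 and 0.0822) or irradiated replicate 1 or 3 (0.0556 and 0.0567). DREB19, a DREB factor of salt and drought, came up from the floor of the scale, with 1.50, 1.37 and 1.43 on the untreated arrays and 4.08, 5.58 and 5.70 on the irradiated arrays (log2 change 3.69, SE 0.42, adjusted p = 0.00277).

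NAC factors rose in 5 of 21 tested, with no fall; 2 of the 5 entered the test only through their irradiated values, and without the filter 7.46% of the 67 on the table rose against 2.46% of all loci. NAC053 (AT3G10500), a factor of proteasome gene expression, read 8.38, 8.44 and 8.57 on the untreated arrays and 10.59, 11.47 and 11.16 on the irradiated arrays (log2 change 2.61, SE 0.25, adjusted p = 0.00118), and NAC046, a factor of leaf senescence, rose by 2.88 (adjusted p = 0.00281). NAC062 and NAC001 rose by 1.22 and 1.83, both lost without untreated replicate 2 (0.0544 and 0.106), untreated replicate 3 (0.0798 and 0.0739) or irradiated replicate 3 (0.0505 and 0.105), when 3 NAC genes rose. NAC001 also lost its call without untreated replicate 1 (0.0602) or irradiated replicate 2 (0.121). MYB factors had 1 rise (MYB12, a flavonol regulator, 1.23) and 1 fall (MYB34) among 22 tested. Each was 4.55% of those tested, against 3.59% that rose and 2.39% that fell of all tested loci. MYB12 kept its call only without irradiated replicate 1 (adjusted p up to 0.133). The difference between families was not tested.

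**Figure D2:**
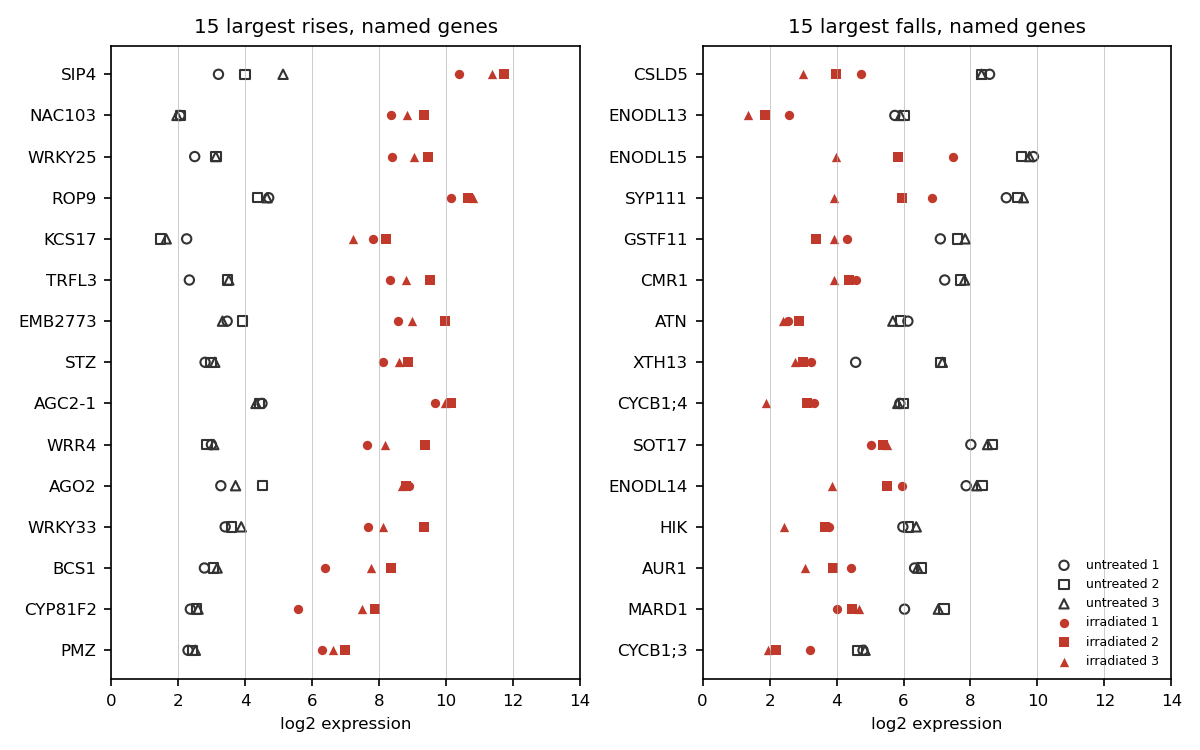
Log2 expression (horizontal axis) on each of the 6 wild type arrays for the 15 largest rises and the 15 largest falls among genes with a name outside the known repair and arrest genes. Open symbols are untreated and filled red symbols irradiated arrays, with a shape per replicate number. Only called genes with separate groups could be chosen. Among the falls ENODL15, SYP111 and ENODL14 spread most on the irradiated arrays.

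Hormone lists held few calls. Auxin genes gave 2 rises and 4 falls among 56 tested (3.57% and 7.14%, against 3.59% and 2.39% of all tested loci). The share of rises was thus near that of all loci, and IAA5 entered the test only through its irradiated values. Without the filter 2.73% of the 110 on the table rose and 5.45% fell, against 2.46% and 1.67% of all loci. The growth-promoting SAUR genes SAUR50, SAUR32 and SAUR55 fell by 2.13, 1.30 and 1.13, and IAA5 and IAA10, which encode auxin response repressors, rose by 2.99 and 0.91. Each of these 5 calls was lost without untreated replicate 2 or 3 (adjusted p from 0.0945 to 0.184). The list then held 1 fall and no rise without untreated replicate 2 or 3; it held 2 falls and 0 rises without irradiated replicate 1, and 2 falls and 1 rise without irradiated replicate 2.

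GA3OX1 (AT1G15550), which makes active gibberellin, read 6.41, 7.41 and 7.28 on the untreated arrays and 5.33, 4.71 and 4.83 on the irradiated arrays (log2 change -2.08, SE 0.31, adjusted p = 0.00971). The gap between groups was wide, with an adjusted p of 0.0514 without untreated replicate 3 and 0.0966 over all 12 arrays. GASA6, a gibberellin-induced peptide gene, fell by 1.12 and kept its call only without irradiated replicate 3. CRF6 (AT3G61630), a cytokinin response factor that also answers oxidative stress, went from 3.18, 3.03 and 3.19 to 6.37, 7.02 and 6.96 (log2 change 3.65, SE 0.22, adjusted p = 0.000136). CRF6 was the 1 rise among 25 tested genes of cytokinin signalling (4.00% against 3.59% of all tested loci). It entered the test only through its irradiated values. Without the filter 2.08% of the 48 on the table rose against 2.46% of all loci. ARR3 and ARR9, response regulators induced by cytokinin, had log2 changes of -1.45 and -0.77 (adjusted p = 0.0915 and 0.15), which were not called. ACS6, an ethylene synthesis enzyme, rose by 0.84, a call lost with any 1 array left out (adjusted p 0.0601 to 0.208). By limma at an adjusted p under 0.05, no call was made among 16 listed brassinosteroid genes or 13 jasmonate genes. BRL3, a brassinosteroid receptor gene that rose, was counted among the receptors instead. Of the 16 listed, BAK1 had the highest change, at 0.81 (adjusted p = 0.101). BEE3, named after its values were seen, had the lowest, at -2.50 (adjusted p = 0.286). BEE3 read 4.82, 9.05 and 9.34 on the untreated arrays and 4.26, 5.19 and 6.26 on the irradiated arrays, with untreated replicate 1 far below the other untreated arrays, and was called without that array (adjusted p = 0.00943). MYC3 of the jasmonate genes was at 0.20 (adjusted p = 0.597).

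Among secreted peptides, CLE41, a signal of vascular stem cells, read 8.20, 8.18 and 8.01 on the untreated arrays and 9.23, 9.20 and 9.37 on the irradiated arrays (log2 change 1.14, SE 0.17, adjusted p = 0.00799). EPF2, a peptide that limits stomatal precursors, read 5.53, 4.87 and 5.16 on the untreated arrays and 3.97, 3.96 and 3.36 on the irradiated arrays (log2 change -1.42, SE 0.26, adjusted p = 0.0214). Groups did not overlap in either gene, yet CLE41 lost its call without untreated replicate 2 or 3 (0.0544 and 0.0635), and EPF2 without untreated replicate 3, irradiated replicate 2 or irradiated replicate 3 (0.0908, 0.0501 and 0.0556). The stomatal markers TMM and SPCH had medians of 5.27 and 4.80 untreated and 4.71 and 4.51 irradiated; their part in the fall of EPF2 was not tested.

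Glucosinolates are sulphur-rich defence compounds of the cabbage family, made from methionine or tryptophan, and camalexin is a defence compound made from tryptophan. Of the 39 lists described here, theirs had the highest share of falls: 11 of 20 tested genes fell (55.0% against 2.39% of all tested loci) and 2 rose. The median change over all 28 on the table was -0.89 against -0.03 over all loci, and 13 of 28 fell without the filter (46.4% against 1.67%). The 11 were 5 without untreated replicate 2, 5 without untreated replicate 3 and 6 without irradiated replicate 2. With all 12 arrays 7 were called.

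Falls on the methionine branch included its first and its last core enzymes. BCAT4 (AT3G19710), the aminotransferase that starts methionine chain elongation, read 10.51, 11.01 and 11.05 on the untreated arrays and 9.65, 9.63 and 9.21 on the irradiated arrays (log2 change -1.36, SE 0.23, adjusted p = 0.0155). CYP83A1, the P450 that oxidises the aldoximes of this branch, went from 9.84, 9.98 and 9.92 to 9.24, 8.31 and 8.36 (log2 change -1.28, SE 0.27, adjusted p = 0.0408). All irradiated values of both genes lay below the untreated ones, CYP83A1 most clearly in irradiated replicates 2 and 3. GSTF11 (AT3G03190), a glutathione transferase of the same branch, had the deepest fall of the list, with 7.10, 7.61 and 7.84 on the untreated arrays and 4.32, 3.38 and 3.91 on the irradiated arrays (log2 change -3.65, SE 0.30, adjusted p = 0.0006). SOT17 (AT1G18590) and SOT18 (AT1G74090) encode the sulfotransferases of the last core step. SOT17 read 8.01, 8.65 and 8.51 on the untreated arrays and 5.02, 5.40 and 5.50 on the irradiated arrays (log2 change -3.08, SE 0.24, adjusted p = 0.000447). SOT18 went from 10.21, 10.63 and 10.67 to 9.36, 9.58 and 9.50 (log2 change -1.02, SE 0.20, adjusted p = 0.0261), a smaller fall from a higher starting value on its own probe set.

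Side chain enzymes moved in opposite directions. FMO GS-OX3 (AT1G62560), a flavin monooxygenase that oxidises the side chain, read 7.12, 7.56 and 7.09 on the untreated arrays and 5.45, 4.92 and 4.68 on the irradiated arrays (log2 change -2.24, SE 0.26, adjusted p = 0.0028), and FMO GS-OX1 went from 5.09, 4.40 and 4.30 to 3.12, 2.81 and 2.29 (log2 change -1.86, SE 0.30, adjusted p = 0.0134). FMO GS-OX4 (AT1G62570) rose instead, from 6.25, 6.58 and 6.63 to 7.18, 7.97 and 7.60 (log2 change 1.10, SE 0.25, adjusted p = 0.0479). These are related genes whose probes may share targets, and whether they did was not tested. AOP1, of the dioxygenase family that further modifies side chains, fell by 1.56.

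On the tryptophan branch, CYP79B2 and CYP79B3, the P450s that make indole-3-acetaldoxime, fell together. CYP79B3 (AT2G22330) read 8.24, 8.16 and 8.09 on the untreated arrays and 5.61, 6.73 and 6.41 on the irradiated arrays (log2 change -1.91, SE 0.29, adjusted p = 0.0104), and CYP79B2 (AT4G39950) read 8.59, 8.62 and 8.48 on the untreated arrays and 6.0, 7.11 and 7.22 on the irradiated arrays (log2 change -1.79, SE 0.33, adjusted p = 0.0232). MYB34 (AT5G60890), the MYB regulator of this branch, went from 8.38, 8.60 and 8.10 to 6.39, 6.30 and 7.35 (log2 change -1.68, SE 0.31, adjusted p = 0.024). For these 3 genes the irradiated arrays were all below the untreated ones; the CYP79B genes were lowest on irradiated replicate 1, and MYB34 was highest of its irradiated arrays on replicate 3. PAD3 and CYP81F2 rose. PAD3 (AT3G26830), the last enzyme of camalexin synthesis, read 3.33, 2.79 and 3.18 on the untreated arrays and 4.46, 4.70 and 4.48 on the irradiated arrays (log2 change 1.45, SE 0.20, adjusted p = 0.00692). CYP81F2 (AT5G57220), counted among the cytochromes P450, which hydroxylates indole glucosinolates in defence, read 2.36, 2.54 and 2.59 on the untreated arrays and 5.59, 7.88 and 7.48 on the irradiated arrays (log2 change 4.49, SE 0.55, adjusted p = 0.00374), low on all untreated and high on all irradiated arrays, lowest of these in replicate 1.

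Calls for SOT17, GSTF11, FMO GS-OX3, CYP79B3, PAD3 and CYP81F2 were kept with each array left out, though FMO GS-OX3 had an adjusted p of 0.128 over all 12 arrays. BCAT4 and CYP79B2 lost theirs without untreated replicate 2 (0.0853 and 0.0943) or 3 (0.0828 and 0.0836), and FMO GS-OX1 without irradiated replicate 2 (0.0501). MYB34 lost its call without untreated replicate 2 or 3 (0.106 and 0.0659) or irradiated replicate 1 or 2 (0.0739 and 0.08). SOT18, AOP1, CYP83A1 and FMO GS-OX4 each kept theirs in 1 of the 6 repeats, with adjusted p up to 0.144, 0.158, 0.159 and 0.15.

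**Figure D3:**
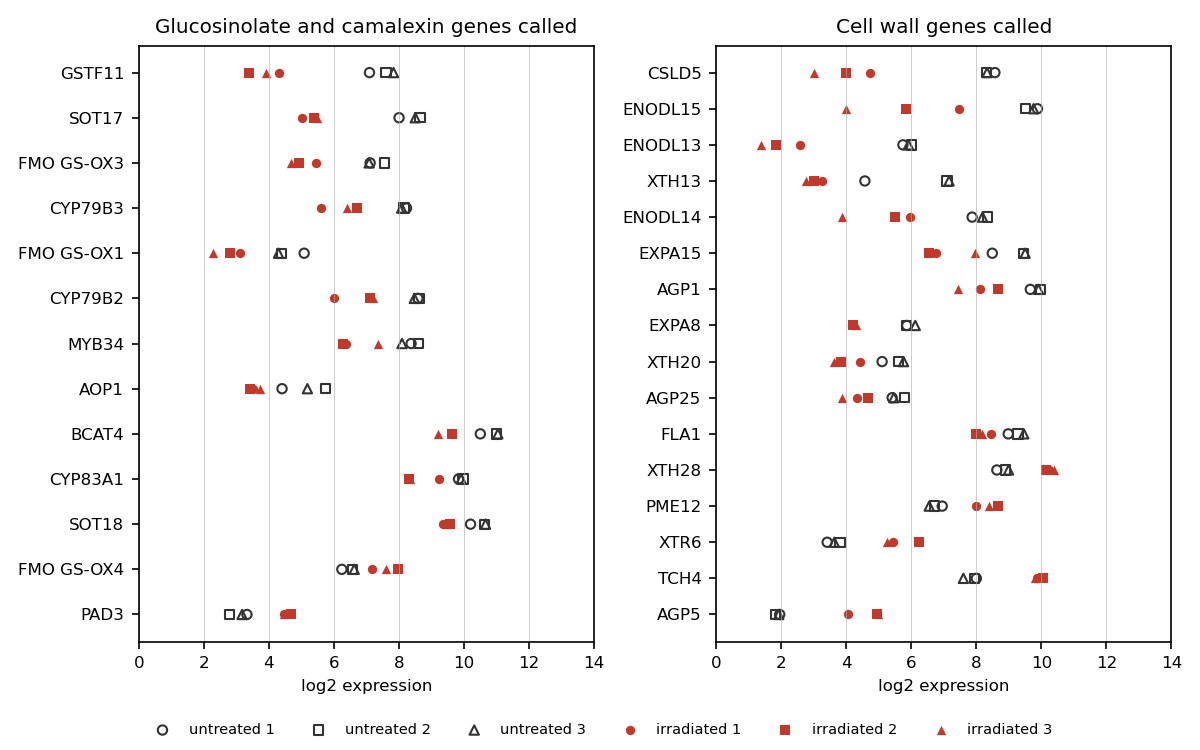
Log2 expression (horizontal axis) on each wild type array for the called genes of glucosinolate and camalexin synthesis (left) and of the cell wall lists (right). Open symbols are untreated and filled red symbols irradiated arrays, with a shape per replicate number; 11 genes on the left have their irradiated arrays below the untreated ones, and FMO GS-OX4 and PAD3 above them.

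Cell wall genes changed in both directions. CSLD5 (AT1G02730), a cellulose synthase-like gene that acts at the new wall of dividing cells, had the deepest fall among genes with a name outside the known repair and arrest genes. It read 8.57, 8.32 and 8.33 on the untreated arrays and 4.73, 3.98 and 3.01 on the irradiated arrays (log2 change -4.50, SE 0.41, adjusted p = 0.000913), so the untreated arrays agreed closely and every irradiated array was far lower. It was the only call among 19 cellulose synthase and cellulose synthase-like genes tested.

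Early nodulin-like proteins, arabinogalactan proteins and fasciclin-like proteins sit on the outer face of the membrane and in the wall. Of 39 tested 6 fell (15.4% against 2.39% of all tested loci) and 1 rose, and without the filter 10.7% of 56 fell against 1.67%. ENODL13 (AT5G25090) read 5.74, 6.01 and 5.91 on the untreated arrays and 2.57, 1.85 and 1.36 on the irradiated arrays (log2 change -3.96, SE 0.31, adjusted p = 0.000447), with every irradiated value far below the untreated ones. ENODL15 (AT4G31840) read 9.88, 9.52 and 9.76 on the untreated arrays and 7.48, 5.83 and 3.98 on the irradiated arrays (log2 change -3.96, SE 0.78, adjusted p = 0.0292), and ENODL14 read 7.87, 8.34 and 8.19 on the untreated arrays and 5.95, 5.50 and 3.86 on the irradiated arrays (log2 change -3.03, SE 0.51, adjusted p = 0.0157). In all 3 genes irradiated replicate 3 was lowest and irradiated replicate 1 highest. ENODL15 lost its call without untreated replicate 1, 2 or 3 (0.0581, 0.0862 and 0.105) or irradiated replicate 2 (0.1), and ENODL14 without untreated replicate 2 or 3 (0.0639 and 0.0658). AGP1, AGP25 and FLA1 fell by 1.78, 1.26 and 1.03, calls lost without untreated replicate 2 (0.0885, 0.134 and 0.153) or 3 (0.0866, 0.108 and 0.173), when ENODL13 was the 1 fall left. AGP5 rose, from 1.95, 1.82 and 1.92 to 4.06, 4.95 and 4.96 (log2 change 2.76, SE 0.27, adjusted p = 0.00139).

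XTH enzymes cut and rejoin xyloglucan in the wall. Of 22 tested 3 rose and 2 fell (13.6% and 9.09%, against 3.59% and 2.39% of all tested loci). Of the rises 1, XTR6, entered the test only through its irradiated values. Without the filter 9.38% of the 32 on the table rose and 6.25% fell, against 2.46% and 1.67% of all loci. TCH4 (AT5G57560), the touch-induced XTH22, read 8.0, 7.94 and 7.60 on the untreated arrays and 9.87, 10.06 and 9.79 on the irradiated arrays (log2 change 2.06, SE 0.19, adjusted p = 0.000982), and XTH28 (AT1G14720) went from 8.63, 8.90 and 8.99 to 10.22, 10.15 and 10.40 (log2 change 1.42, SE 0.18, adjusted p = 0.00453). XTR6 (AT4G25810), which is XTH23, read 3.41, 3.80 and 3.63 on the untreated arrays and 5.43, 6.23 and 5.25 on the irradiated arrays (log2 change 2.02, SE 0.29, adjusted p = 0.00696). Each of the 3 was higher on all irradiated arrays, and these 3 calls stood with each array left out. XTH13 (AT5G57540) fell, with 4.57, 7.10 and 7.16 on the untreated arrays and 3.24, 3.01 and 2.77 on the irradiated arrays (log2 change -3.27, SE 0.66, adjusted p = 0.0339); its value in untreated replicate 1 was well below the other untreated arrays. XTH20 fell by 1.53. No XTH gene that fell was called without untreated replicate 2, untreated replicate 3, irradiated replicate 2 or irradiated replicate 3, 1 was without irradiated replicate 1, and 5 were without untreated replicate 1; XTH13 had adjusted p of 0.0802 to 0.119 in those repeats where its call was lost.

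Expansins loosen the wall in growing cells. Of 16 tested 2 fell (12.5% against 2.39% of all tested loci) and none rose. Without the filter 14.8% of the 27 on the table fell against 1.67% of all loci. EXPA8 (AT2G40610) read 5.86, 5.85 and 6.12 on the untreated arrays and 4.16, 4.20 and 4.29 on the irradiated arrays (log2 change -1.73, SE 0.17, adjusted p = 0.00138), a tight separation, but the adjusted p was 0.187 over all 12 arrays. EXPA15 read 8.49, 9.45 and 9.50 on the untreated arrays and 6.77, 6.55 and 7.97 on the irradiated arrays (log2 change -2.05, SE 0.44, adjusted p = 0.0404) and lost its call without untreated replicate 2 or 3 (0.147 and 0.161) or irradiated replicate 1 or 2 (0.111 and 0.126). Expansin falls numbered 1 without untreated replicate 2, untreated replicate 3 or irradiated replicate 2, and 4 without irradiated replicate 3. PME12 (AT2G26440), a pectin methylesterase, rose from 6.95, 6.72 and 6.55 to 8.0, 8.66 and 8.39 (log2 change 1.61, SE 0.23, adjusted p = 0.00698) as the only call among 35 pectin genes. No gene of 10 extensins and proline-rich wall proteins was called; EXT13 read 4.62, 7.06 and 6.20 on the untreated arrays and 3.05, 6.15 and 4.14 on the irradiated arrays (adjusted p = 0.369), and its groups overlapped.

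Lipid genes of the cuticle were also divided. KCS17 (AT4G34510), a ketoacyl-CoA synthase of very long chain fatty acid elongation, read 2.25, 1.47 and 1.64 on the untreated arrays and 7.81, 8.20 and 7.21 on the irradiated arrays (log2 change 5.95, SE 0.32, adjusted p = 7.04e-05). Its relatives KCS19 (AT5G04530) and KCS16 (AT4G34250) fell: KCS19 went from 7.75, 8.56 and 8.55 to 5.68, 6.27 and 6.15 (log2 change -2.25, SE 0.29, adjusted p = 0.00428), and KCS16 from 5.15, 5.59 and 5.40 to 4.11, 4.01 and 4.34 (log2 change -1.23, SE 0.20, adjusted p = 0.0121). Thus 1 elongase gene went from the bottom of the scale to a middling level while others dropped, with no overlap in any of the 3. HTH, known as HOTHEAD and needed for the cuticle of floral organs, fell by 1.19, and GPAT3, an acyltransferase gene, by 1.0. KCS16, HTH and GPAT3 lost their calls without untreated replicate 2 (0.078, 0.0727 and 0.136) or 3 (0.0718, 0.0684 and 0.0739). KCS17 was the 1 rise in this list of 34 tested (2.94% against 3.59% of all tested loci) and entered the test only through its irradiated values. Falls in the list numbered 4 (11.8% against 2.39%), and 1 without untreated replicate 2 or 3. Without the filter 7.14% of the 56 on the table fell against 1.67% of all loci. Over all 12 arrays none of the 4 falls was called, with adjusted p of 0.0517 for KCS19 and 0.255 for KCS16. None of 10 lipid transfer protein genes was called, LTP6 having the smallest p (-0.59, adjusted p = 0.117).

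Detoxifying enzymes gave rises and falls in similar number. UGT73B4 (AT2G15490), a glycosyltransferase induced by pathogens and oxidative stress, read 6.81, 6.27 and 5.96 on the untreated arrays and 9.17, 9.44 and 9.12 on the irradiated arrays (log2 change 2.90, SE 0.25, adjusted p = 0.000784). Its neighbour in the family UGT73B5 went from 5.35, 5.31 and 5.03 to 6.70, 7.70 and 6.74 (log2 change 1.82, SE 0.30, adjusted p = 0.0141), losing its call without untreated replicate 2 or 3 (0.0554 and 0.0716). Both genes were higher on all irradiated arrays. Of 29 glycosyltransferases tested 2 rose (6.90% against 3.59% of all tested loci) and 1 fell (3.45% against 2.39%), and 1 and 0 were called without untreated replicate 2 or 3. Among 27 glutathione transferases GSTU22 and GSTU25 rose by 1.25 and 0.88, and GSTF11 and GSTU6 fell by 3.65 and 2.18. That was 7.41% each way, against 3.59% and 2.39% of all tested loci. Without untreated replicate 2 or 3 GSTF11 alone was called, the others having adjusted p of 0.0718 to 0.151.

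Cytochromes P450 gave 5 rises and 6 falls among 64 tested (7.81% and 9.38% against 3.59% and 2.39% of all tested loci), CYP81F2, PAD3, CYP79B2, CYP79B3 and CYP83A1 among them. Of the 5 rises 3 entered the test only through their irradiated values, and without the filter 3.89% of the 180 on the table rose and 3.33% fell, against 2.46% and 1.67% of all loci. CYP81D8 (AT4G37370), a P450 induced by many toxic compounds, read 2.51, 2.32 and 2.48 on the untreated arrays and 4.57, 5.36 and 4.67 on the irradiated arrays (log2 change 2.43, SE 0.25, adjusted p = 0.00157). CYP78A5 (AT1G13710), known as KLUH and a promoter of organ growth, went from 7.21, 7.15 and 6.87 to 5.52, 5.85 and 5.78 (log2 change -1.36, SE 0.19, adjusted p = 0.00648), with an adjusted p of 0.144 over all 12 arrays. CYP707A2, which breaks down abscisic acid, and CYP710A2, which makes stigmasterol, fell by 1.67 and 1.90. The call of CYP707A2 was kept without irradiated replicate 1, 2 or 3 only (adjusted p up to 0.0885), and that of CYP710A2 without untreated replicate 1 only (up to 0.161). CYP71B5 and CYP72A7 rose by 1.85 and 1.14; CYP71B5 lost its call without untreated replicate 3 (0.0514) or irradiated replicate 2 (0.0557), and CYP72A7 without untreated replicate 1, 2 or 3 (0.0622, 0.147 and 0.174) or irradiated replicate 3 (0.0691). The 6 falls were 2 without untreated replicate 2 or 3, and the 5 rises were 3 without untreated replicate 3.

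Alternative respiration keeps electrons flowing when the mitochondrial chain is disturbed. AT2G21640, a marker of oxidative and mitochondrial stress known as UPOX, read 4.52, 3.83 and 3.96 on the untreated arrays and 7.79, 7.84 and 8.70 on the irradiated arrays (log2 change 4.01, SE 0.31, adjusted p = 0.000447). BCS1 (AT3G50930), an ATPase of the outer mitochondrial membrane known as OM66, read 2.78, 3.06 and 3.16 on the untreated arrays and 6.38, 8.34 and 7.77 on the irradiated arrays (log2 change 4.50, SE 0.47, adjusted p = 0.00187), also with no overlap and with irradiated replicate 1 the lowest of its group. Neither the alternative oxidase AOX1A, at 9.60, 9.58 and 9.93 on the untreated arrays and 10.09, 10.08 and 10.48 on the irradiated arrays (log2 change 0.51, adjusted p = 0.211), nor the NADH dehydrogenase NDA2 (0.67, adjusted p = 0.0834) was called. Both did read higher on all 3 irradiated arrays.

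Primary metabolism held few calls. In sugar transport and starch 2.70% of tested genes fell, against 2.39% of all tested loci. In nitrate and sulphate use 3.03% rose, against 3.59%. Of 37 genes of sugar transport and starch SWEET17, a vacuolar fructose transporter, was the 1 that fell (log2 change -1.34, SE 0.24, adjusted p = 0.0218). Its call was lost without untreated replicate 2 or 3 (0.108 and 0.109) or irradiated replicate 1, 2 or 3 (0.0593, 0.051 and 0.0717). PTR4, of the nitrate and peptide transporter family, was the 1 rise among 33 genes of nitrate and sulphate use (log2 change 1.56, SE 0.32, adjusted p = 0.0372); it lost its call in all repeats but that without irradiated replicate 2, with adjusted p up to 0.151 without untreated replicate 3. In phenylpropanoid synthesis 4CL2 and 4CL5, ligases that activate coumaric acid, fell by 1.60 and 1.07 among 20 tested; neither was called without untreated replicate 2 (0.11 and 0.175), untreated replicate 3 (0.119 and 0.18), irradiated replicate 2 (0.0741 and 0.0762) or irradiated replicate 3 (0.0531 and 0.0724). That list had a median change of -0.74 over its tested genes. No call was made among 9 trehalose phosphate genes or 6 class III peroxidases. TPS11 read 5.54, 5.64 and 5.39 on the untreated arrays and 5.39, 8.09 and 5.46 on the irradiated arrays and so was high on irradiated replicate 2 alone.

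ROP GTPases are switches of polar growth and membrane traffic. ROP9 (AT4G28950), also known as RAC7, read 4.70, 4.36 and 4.65 on the untreated arrays and 10.16, 10.65 and 10.81 on the irradiated arrays (log2 change 5.97, SE 0.23, adjusted p = 1.47e-05), while ROPGEF6 (AT3G55660), an activator of ROP proteins, went from 4.43, 4.84 and 4.92 to 2.98, 2.54 and 2.25 (log2 change -2.14, SE 0.25, adjusted p = 0.00284). Neither gene had overlapping groups. EXO70H2, an exocyst subunit, rose by 1.07, and only ROP9 was called as risen without untreated replicate 1 (0.0634 for EXO70H2), 2 (0.145) or 3 (0.189) or irradiated replicate 1 (0.0823) or 2 (0.0691).

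Transporters of the ABC and MATE families gave 4 rises and 1 fall among 59 tested (6.78% and 1.69%, against 3.59% and 2.39% of all tested loci). Of the rises 1, ABCB13, entered the test only through its irradiated values. Without the filter 4.95% of the 101 on the table rose and 0.990% fell, against 2.46% and 1.67% of all loci. ABCB13 (AT1G27940) read 2.37, 2.96 and 3.14 on the untreated arrays and 5.11, 6.63 and 6.94 on the irradiated arrays (log2 change 3.40, SE 0.48, adjusted p = 0.00709). ABCG1 (AT2G39350), an exporter of suberin building blocks, went from 5.52, 5.38 and 5.66 to 7.58, 7.87 and 7.08 (log2 change 1.99, SE 0.24, adjusted p = 0.0033), and ABCG18 rose by 1.54 (adjusted p = 0.00552). ABCB13 stood low before irradiation and its irradiated replicate 1 was the lowest of that group, whereas the irradiated values of ABCG18 were nearly equal. ABCB1, an auxin exporter, rose by 1.75 and lost its call without untreated replicate 2 or 3 (0.0546 and 0.0501) or irradiated replicate 2 or 3 (0.0601 and 0.0636). ABCG19 fell by 1.10, a call that no repeat with 1 array left out kept (0.0538 to 0.132). Of 16 aquaporins none was called; all 16 had a change below 0, with a median of -0.50, and 3 fell without untreated replicate 1.

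Heat shock genes and genes of senescence and autophagy had 1 rise each, in lists of 24 and 25 tested (4.17% and 4.00% against 3.59% of all tested loci). HSFA8, a heat shock factor, rose by 1.66 and APG5, the autophagy gene ATG5, by 1.25. Both calls were lost without untreated replicate 2 (0.115 and 0.0999) or 3 (0.129 and 0.0997), that of HSFA8 also without irradiated replicate 3 (0.0508) and that of APG5 without irradiated replicate 2 (0.0596). Across the 39 lists 122 of 977 tested loci were called (12.5% against 5.98% of all tested loci). The lists were chosen with earlier results of these data known. Some of the 122 entered the test only through their irradiated values, so the 12.5% rests partly on the filter. The share without the filter was not worked out for all lists together. In 7 lists no call was made with limma at an adjusted p under 0.05. At an unadjusted p under 0.05 these 7 held 3 of 16 aquaporins, 4 of 16 brassinosteroid genes, 1 of 13 jasmonate genes, 1 of 10 lipid transfer proteins, 0 of 10 extensins and proline-rich proteins, 2 of 9 trehalose phosphate genes and 1 of 6 class III peroxidases.

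**Figure D4:**
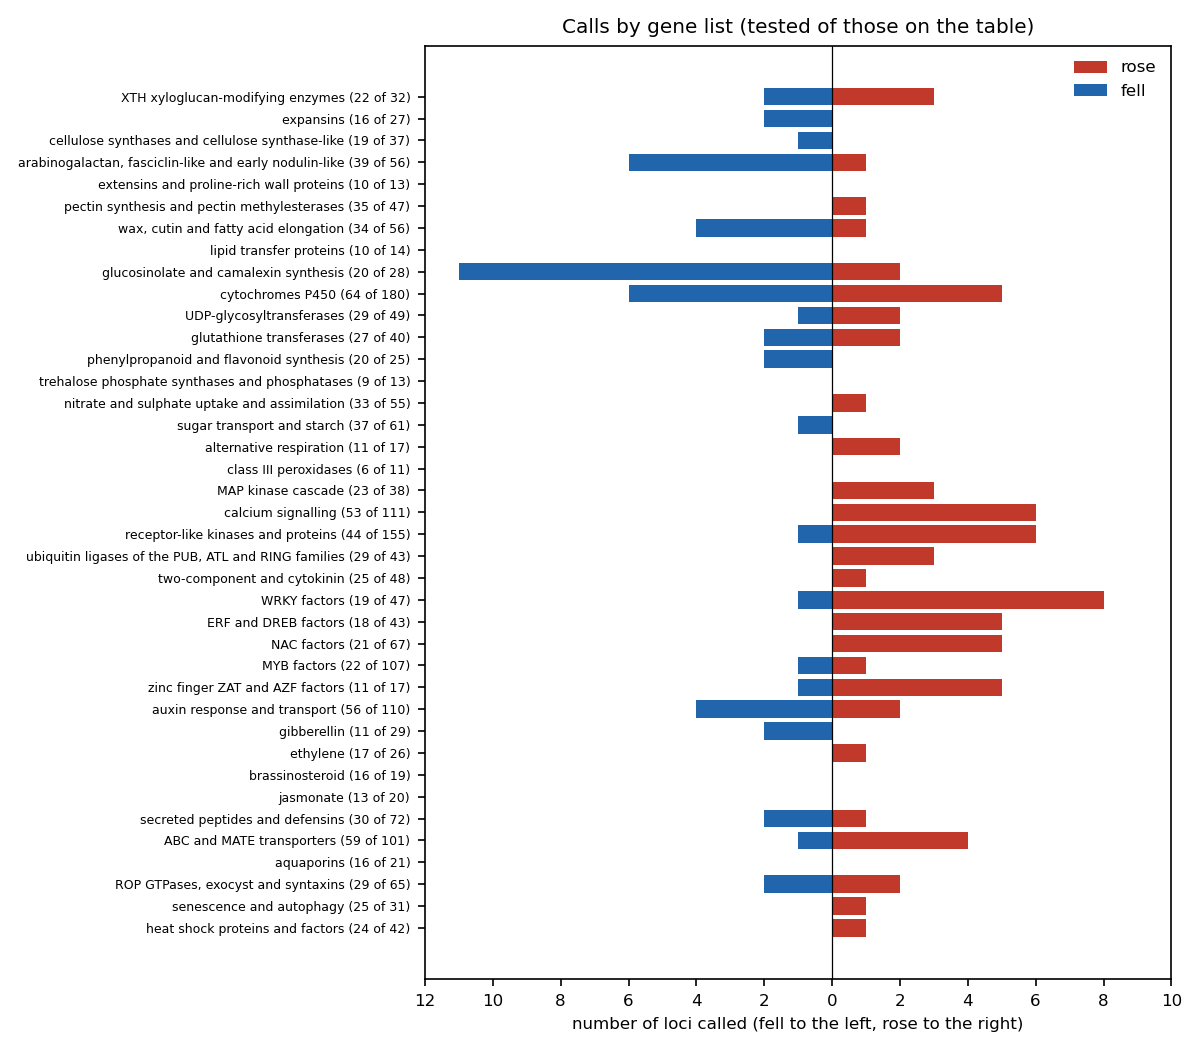
Number of called loci in each of the 39 gene lists, falls to the left in blue and rises to the right in red, with the number tested of those on the table in brackets. The glucosinolate and camalexin list has the longest bar of falls (11) and the WRKY list the longest of rises (8).

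The largest rises with a name also held 5 genes outside the lists. TRFL3 (AT1G17460), a gene of the telomere repeat binding factor-like family, read 2.33, 3.47 and 3.51 on the untreated arrays and 8.31, 9.51 and 8.80 on the irradiated arrays (log2 change 5.77, SE 0.42, adjusted p = 0.000336). EMB2773 (AT5G15540), the cohesin loader gene SCC2, read 3.46, 3.91 and 3.32 on the untreated arrays and 8.56, 9.98 and 8.98 on the irradiated arrays (log2 change 5.61, SE 0.37, adjusted p = 0.000221), and AGO2 (AT1G31280), an argonaute of antiviral defence also tied to small RNAs at DNA breaks, read 3.27, 4.52 and 3.71 on the untreated arrays and 8.90, 8.80 and 8.69 on the irradiated arrays (log2 change 4.96, SE 0.32, adjusted p = 0.000176). Their irradiated arrays were all high, those of AGO2 within a narrow range. WRR4 (AT1G56510), an immune receptor gene against white rust, rose by 5.42 (SE 0.42, adjusted p = 0.000445), and PMZ (AT3G28210), a zinc finger gene of stress also called SAP12, by 4.22 (SE 0.22, adjusted p = 5.67e-05).

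Genes of cell division made up most of the remaining falls among the 15 largest. SYP111 (AT1G08560), the cell plate syntaxin KNOLLE, read 9.07, 9.40 and 9.58 on the untreated arrays and 6.86, 5.96 and 3.91 on the irradiated arrays (log2 change -3.77, SE 0.68, adjusted p = 0.021). It was low on all irradiated arrays but to a different depth on each, and lost its call without untreated replicate 2 (0.074), untreated replicate 3 (0.0826) or irradiated replicate 2 (0.0671). HIK (AT1G18370), the kinesin HINKEL of cytokinesis, went from 5.98, 6.15 and 6.38 to 3.76, 3.66 and 2.44 (log2 change -2.88, SE 0.36, adjusted p = 0.00413), and ATN (AT3G05330), known as TANGLED and a marker of the division plane, from 6.13, 5.91 and 5.68 to 2.55, 2.88 and 2.40 (log2 change -3.30, SE 0.21, adjusted p = 0.000176). The mitotic kinase gene AUR1 fell by 2.63, CMR1, known as PATRONUS1 and a protector of sister chromatid cohesion, by 3.30, and the mitotic cyclin genes CYCB1;4 and CYCB1;3 by 3.12 and 2.31. MARD1, a gene of seed dormancy, read 6.03, 7.21 and 7.04 on the untreated arrays and 4.01, 4.45 and 4.67 on the irradiated arrays (log2 change -2.38, SE 0.35, adjusted p = 0.00808), lower on every irradiated array, with an adjusted p of 0.0516 over all 12 arrays.

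Loci without a gene name made up 4646 of the 9566 tested. Of these 156 rose (3.36%) and 93 fell (2.00%), against 3.80% and 2.76% of loci with a name, so they were called nearly as often. The largest rise of any locus without a name was that of AT5G60250, with 2.09, 1.64 and 1.63 on the untreated arrays and 10.39, 10.41 and 10.35 on the irradiated arrays (log2 change 8.60, SE 0.19, adjusted p = 2.85e-06). AT3G45730 read 2.90, 2.73 and 2.74 on the untreated arrays and 10.36, 10.83 and 10.93 on the irradiated arrays (log2 change 7.92, SE 0.21, adjusted p = 2.85e-06), and AT4G22960 read 2.57, 2.24 and 2.16 on the untreated arrays and 8.83, 9.63 and 9.82 on the irradiated arrays (log2 change 7.10, SE 0.29, adjusted p = 1.77e-05). These loci were at the bottom of the scale on every untreated array and among high values on every irradiated array, AT5G60250 with almost no spread between replicates. AT2G45460 read 3.18, 3.34 and 3.56 on the untreated arrays and 9.97, 10.71 and 10.31 on the irradiated arrays, AT2G47680 3.14, 2.81 and 2.63 on the untreated arrays and 9.19, 10.24 and 9.64 on the irradiated arrays, and AT4G25330 1.58, 1.33 and 1.34 on the untreated arrays and 7.48, 8.62 and 8.54 on the irradiated arrays. Their log2 changes were 6.97, 6.83 and 6.80 (adjusted p = 1.17e-05, 2.42e-05 and 3.86e-05). The others of the 10 largest rises were AT5G23910 (6.72), AT5G67460 (6.12), AT3G10930 (6.12) and AT3G42860 (6.11).

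Falls of loci without a name were led by AT4G15830, with 8.21, 8.45 and 8.40 on the untreated arrays and 4.24, 3.48 and 3.17 on the irradiated arrays (log2 change -4.72, SE 0.29, adjusted p = 0.000137). AT3G02640 read 8.73, 9.09 and 8.86 on the untreated arrays and 5.71, 4.88 and 3.10 on the irradiated arrays (log2 change -4.33, SE 0.60, adjusted p = 0.00653), falling least in irradiated replicate 1 and most in irradiated replicate 3. AT4G02800 read 6.37, 6.37 and 6.40 on the untreated arrays and 3.18, 2.72 and 2.32 on the irradiated arrays (log2 change -3.64, SE 0.24, adjusted p = 0.000214), with untreated arrays that differed hardly at all. AT5G45700 fell to the floor of the scale, from 4.27, 5.05 and 5.05 to 1.49, 0.78 and 0.93 (log2 change -3.72, SE 0.30, adjusted p = 0.000471). AT3G12870, AT5G16250, AT3G51280, AT5G66230, AT3G03130 and AT2G34190 fell by 3.75, 3.61, 3.59, 3.38, 2.85 and 2.72. All 20 of these loci kept their call with each array left out, the weakest being AT5G16250 (adjusted p up to 0.0496).

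**Figure D5:**
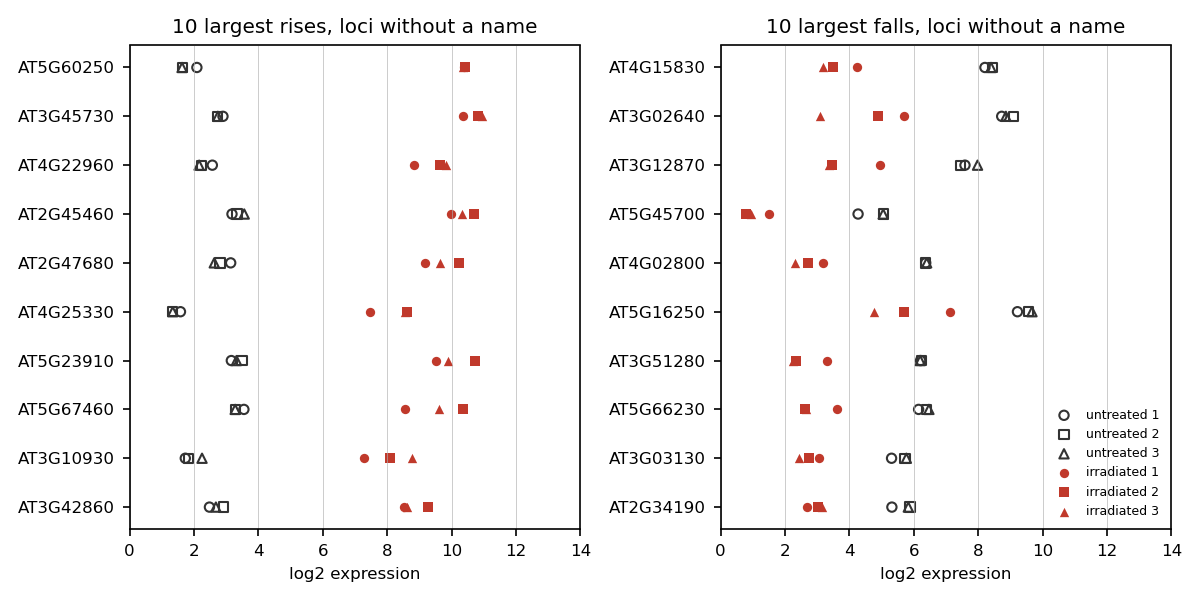
Log2 expression (horizontal axis) on each wild type array for the 10 largest rises (left) and 10 largest falls (right) among called loci without a gene name. Open symbols are untreated and filled red symbols irradiated arrays, with a shape per replicate number. Rises start between 1.33 and 3.56. Only called loci with separate groups could be chosen.

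The gmi1-1 arrays give the same loci in other samples. The library labelled gmi1-1 untreated replicate 1 had a BRCA1 value of 10.54, against 2.70 and 2.90 in gmi1-1 untreated replicates 2 and 3, so it went against its label. In gmi1-1 replicates 2 and 3, 322 of the 343 loci that rose in wild type had both irradiated arrays above both untreated arrays, against 9.54% of all tested loci. Of the 229 that fell, 227 had both below, but so did 47.1% of all tested loci. With replicate 1 included, the counts were 57 and 99, against 1.55% and 10.7% of tested loci. AT5G60250 differed by 8.09 between irradiated and untreated gmi1-1 replicates 2 and 3, KCS17 by 5.84, SIP4 by 5.83 and CYP81F2 by 4.28. Falls there were -4.42 for CSLD5, -2.83 for SOT17, -2.43 for CYP79B3 and -4.36 for GA3OX1, given as values without a test. Other genes differed less there than in wild type, FMO GS-OX1 by -0.31 against -1.86 and PME12 by 0.62 against 1.61. The GAPDH control probe set for the 5′ end read -1.30 relative to the middle one on gmi1-1 irradiated replicate 3, against -0.17 to -0.47 on the other arrays; its part in these values was not tested.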

How the data were processed

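The deposited log2 expression values, each for 1 probe set on 1 array, were made by the authors with GCRMA, per the submitters' processing notes. The GCRMA version, array design and genome build were not given. Biotin labelling followed the array maker's one-cycle method, per the labels' protocols. GCRMA compresses values near background, so changes of low loci are approximate, and the number of arrays limits the precision. Groups and replicate numbers came from sample titles. Names came from RefSeq (assembly TAIR10.1): 16851 of 16947 loci matched by locus tag and 7653 had a name; 2 control probe sets were left out, and loci outside the table were not analysed here.

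Loci with a log2 value of 4 or more on at least 3 of the 6 wild type arrays were tested with limma 3.58.1 (lmFit and eBayes; R 4.3.3), two-sided, with Benjamini-Hochberg adjustment over all 9566. The fit used these 6 arrays alone, since earlier results showed the 2 gmi1-1 libraries of replicate 1 to be alike, the untreated one going against its label; with all 12 arrays 314 loci rose and 132 fell. The gene groups were 39 lists matched by gene symbol or synonym, with 36 loci removed whose synonym belongs to another family. The members, the lists and the design were chosen with earlier results of these data known. Named genes were the 15 largest rises and falls with a name outside 35 known repair and arrest loci, and the 10 largest without one. These were taken only from called loci whose groups did not overlap, a condition that every called locus met. Up to 4 members per list with the smallest p were named too. Other called list members were added after their values were seen. A gene that the rule names is not reported here. The method was tested on simulated data with errors drawn independently for each array. That test therefore does not cover the likeness of untreated replicates 2 and 3. Deviations of same-numbered untreated and irradiated arrays correlated at 0.49, 0.07 and 0.54 for replicates 1, 2 and 3, and those of arrays of different number at -0.56 to 0.37. Numbers 1 and 3 thus went together more than any mismatched pair, and number 2 did not. The main fit did not take the numbers as pairs. Alternatives were other filters, scalings, eBayes settings, sets of arrays, a replicate block, array weights and each array left out. P-values measure the spread between these samples.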

Additional observations from a re-analysis of the deposited data

How the results depend on the processing

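Of 572 calls, 409 were shared with the fit to all 12 arrays (314 rose, 132 fell), 535 with 10 arrays, 530 with quantile normalization, 549 with median centring, 517 with an intensity trend and 565 with a robust prior. A filter at a log2 value of 6 left 6859 loci and 380 calls (143 fell). Array weights gave 1007 calls, with 550 that fell and 457 that rose, so the balance turned, as it did without untreated replicate 1 (342 fell, 306 rose); the cause was not tested. Averaging untreated replicates 2 and 3, an alternative chosen after seeing the data, gave 283 calls (213 rose, 70 fell), of which all 283 were among the 572. Leaving out 1 array gave 277 to 648 calls, with 208 to 332 that rose and 69 to 342 that fell. Quantile normalization and median centring moved the median change from -0.11 to -0.04 and -0.16. Of 175 called loci taken up by the naming rule or added to it, 105 kept their call with each array left out; 68 lost it with untreated replicate 3 left out, 63 with untreated replicate 2, 46 with irradiated replicate 2, 40 over all 12 arrays and 9 with quantile normalization. None of the 175 changed direction under these alternatives. Of genes not called, TPS11 ranged from -0.10 (reversed, without irradiated replicate 2) to 1.25 when 1 array was left out, and RHS19, a peroxidase gene at 0.39, from -0.39 (reversed, without untreated replicate 1) to 0.90, with -0.06 when irradiated replicate 2 was omitted and -0.43 under array weights.

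With the replicate number as a block, 827 loci were called (434 rose, 393 fell), of which 553 were among the 572, and 5 of the 175 loci lost their call. A further 19 named genes gained one, among them EXT11, EXT13, PRP1 and PRP3 (4 falls among 10 tested extensins and proline-rich proteins). PIP2;4, PIP2;5 and NLM1 (3 falls among 16 tested aquaporins) gained one too. Of all 9566 tested loci 393 fell with the block. Both lists had no call in the main fit. The 3 aquaporin genes were also called without untreated replicate 1 (adjusted p = 0.0341, 0.0204 and 0.0156) and with array weights. With the block, 5 of 25 tested genes of senescence and autophagy rose, against 434 of all 9566 tested loci. The labels give the numbers only as replicate numbers. In their deviations, arrays numbered 1 and 3 correlated best with their own number (0.49 and 0.54), but the arrays numbered 2 correlated better with arrays of another number.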

Other observations

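Named genes outside the lists extended these groups, and were chosen after their values were seen. IPMI1 (AT3G58990), an isopropylmalate isomerase subunit of methionine chain elongation, read 9.13, 9.94 and 10.01 on the untreated arrays and 7.77, 7.37 and 7.46 on the irradiated arrays (log2 change -2.16, SE 0.28, adjusted p = 0.00444). CB5-C, a cytochrome b5 gene, fell by 1.89 (adjusted p = 0.00428). AKN2 and APK encode APS kinases, which make the sulphate donor of sulfotransferases. AKN2 read 7.94, 9.19 and 9.0 on the untreated arrays and 6.73, 6.61 and 7.0 on the irradiated arrays (log2 change -1.93, SE 0.34, adjusted p = 0.0191), and APK fell by 1.21 (adjusted p = 0.0428). Both were lower on all irradiated arrays, but AKN2 lost its call without untreated replicate 2 (0.0727), untreated replicate 3 (0.0849), irradiated replicate 1 (0.0596) or irradiated replicate 2 (0.0761), and APK kept its call only without untreated replicate 1. Of the methyltransferase genes that modify indole glucosinolates, IGMT5 went from 7.60, 8.09 and 8.38 to 6.27, 5.88 and 5.87 (log2 change -2.02, SE 0.25, adjusted p = 0.00382), whereas IGMT2 rose from 3.23, 3.30 and 3.37 to 5.42, 6.23 and 6.20 (log2 change 2.65, SE 0.25, adjusted p = 0.00116). IGMT2 belongs to a family of close copies, so its values are uncertain as to the copy.

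Single genes of membrane traffic and ion transport, also picked after their values were seen, were among the rises. NRAMP3 (AT2G23150), a vacuolar metal transporter, read 6.50, 5.82 and 6.12 on the untreated arrays and 9.74, 10.24 and 9.75 on the irradiated arrays (log2 change 3.76, SE 0.25, adjusted p = 0.000202). CLC3 (AT3G51890), a clathrin light chain gene, read 5.31, 5.67 and 5.46 on the untreated arrays and 8.05, 8.75 and 8.51 on the irradiated arrays (log2 change 2.96, SE 0.23, adjusted p = 0.000447). SARA1A, a SAR1 GTPase gene of vesicles leaving the endoplasmic reticulum, VAMP728, a vesicle SNARE gene, NHX6, an endosomal sodium and proton exchanger, and AAP6, an amino acid permease, rose by 3.03, 2.59, 2.42 and 2.58. All 6 kept their calls with each array left out, though AAP6 had an adjusted p of 0.0501 over all 12 arrays. Of other functions, TSL, the tousled kinase gene, rose by 3.15, TON1B of cortical microtubules by 2.51, and SAY1, a UBX domain gene, by 3.01. FKGP, which recycles fucose, rose by 2.60, PAD2, a proteasome subunit gene, by 2.22, and DDI1, a ubiquitin receptor gene, by 1.48. ERD14, a dehydrin gene, read 10.54, 10.69 and 10.75 on the untreated arrays and 12.69, 12.88 and 13.23 on the irradiated arrays (log2 change 2.27, SE 0.20, adjusted p = 0.000801), and TIL, a temperature-induced lipocalin gene, rose by 1.91.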
